A study of Mus musculus with 21 samples.

Results

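Type I interferon response genes were followed in the cerebellum and in cultured cerebellar granule cells of Cstb-/- mice, which lack cystatin B, an inhibitor of lysosomal cysteine proteases. The set was a list of 37 gene symbols that cover the interferon receptor, the transcription factors behind it and the genes these switch on. A probe set was taken as a member where the annotation gave it one of these symbols and no other. By this rule 35 of the 37 genes were measured, through 61 of the 45037 probe sets tested, and these are 35 of the 18193 genes that had a probe set of their own. Isg15 was left out because its probe set also carries a second symbol, and Ifi44 was not analysed here.

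Type I interferons bind a receptor made of IFNAR1 and IFNAR2, which acts through the kinases JAK1 and TYK2. STAT2 and IRF9 then act in a complex that binds the interferon-stimulated response element of its target genes. Many of the targets restrain viruses, others sense foreign nucleic acid, and some, such as Usp18, switch the receptor off again. In the brain microglia are a strong source of such transcripts, and neurons and astrocytes can make them too.

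RNA was hybridized to Affymetrix arrays from cerebella at postnatal day 7 (4 Cstb-/- and 4 wild type arrays), from cerebella at postnatal day 30 (3 and 3), and from granule cell cultures (3 and 4). All mice were on the 129SvJ background. The knockout is constitutive, so that every cell of the animal lacks the gene, and wild type littermates served as controls. The cultures of both genotypes were made from pups of postnatal day 5, freed of meninges, treated with AraC (cytosine arabinoside) against dividing glia and harvested after 2 days in vitro. The labels do not say whether an array stands for 1 animal or for a pool, so the p-values measure the spread between these arrays only.

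The values are log2 signals, centred for each probe set on its median within the experiment. They show differences between arrays but no level, so neither the levels of different genes nor the purity of a culture can be read from them. Values of single arrays are given below as log2 signal relative to the wild type mean of the same experiment, and a difference is the Cstb-/- mean minus the wild type mean. Calls come from limma with Benjamini-Hochberg adjustment over all 45037 probe sets. For a call the fold had to reach 1.3, with an adjusted p below 0.05 for cerebella and below 0.01 for cultures. Because whole tissue or a whole culture was measured, fewer cells of a type and less RNA per cell cannot be told apart.

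Cstb itself was lower on every knockout array. Its 2 probe sets differed by -3.10 and -2.31 at P7, by -2.70 and -2.77 at P30 and by -2.08 and -1.86 in the cultures. Some arrays went against their labelled sex. In the cultures, knockout array 2 was labelled female but had the Y-linked transcript Eif2s3y and little Xist, knockout array 1 was labelled male but lacked Eif2s3y, and wild type arrays 7 and 8 carried both transcripts. Of the P30 arrays, knockout 1 was labelled female and could not be told from the male arrays by these genes. Results from the cultures are therefore also given without knockout arrays 1 and 2 and without wild type arrays 7 and 8.

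The interferon-stimulated response element has a core of a repeated GAAA with any 2 bases between, GAAANNGAAA. It was searched on both strands in the 300 bases around the start of each gene, 250 before and 50 after, with overlapping matches counted. RefSeq windows (build GRCm38.p6) were at hand for 26 of the 35 member genes, and 10 of these 26 (38.5%) held the core. Of all 27025 genes with a window, 1079 (3.99%) held it. The member genes with the core were Bst2, Eif2ak2, Gbp2, Gbp3, Ifih1, Ifit1, Ifit3, Ifitm3, Rsad2 and Stat2. A match is a run of letters, not a measured binding site. The stretches of Bst2 (tetherin, which holds budding virus at the cell surface) and Ifit1 (which binds foreign RNA at its 5′ end) are shown because both genes lay higher in the knockout at P30 and lower in the knockout cultures, with no overlap of arrays in either experiment. They were chosen after these values were seen. Of the other genes with this pattern, Irf9, Oasl2, Trim25 and Xaf1 had a window without the core, and Parp9, Rtp4 and Usp18 had no window. Dtx3l, Ifit2 and Lgals3bp, the members called in the cultures that had a window, did not hold the core. Each stretch is written 5′ to 3′ along the strand of its gene, with the matches to the core in capitals.
Bst2, chr8:71537557-71537632, minus strand: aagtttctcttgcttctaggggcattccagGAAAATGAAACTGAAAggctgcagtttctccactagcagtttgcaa
Ifit1, chr19:34640755-34640843, plus strand: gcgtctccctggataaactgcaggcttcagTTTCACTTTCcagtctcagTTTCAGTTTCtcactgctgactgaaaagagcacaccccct
In Bst2 a pair of cores overlap in the direction of the gene, from position -130 to -115 relative to its start. In Ifit1 a pair of separate cores read in the opposite direction, between positions -104 and -76.

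In P7 cerebella the interferon response genes differed little between the genotypes. By limma none of the 61 member probe sets was called, and 0.00666% of all probe sets were. The methods' t-test, with correction or without, also called none. An unadjusted p under 0.05 was reached by 2 of the 61 member probe sets against 9.45% of all. Both of these were lower in the knockout, by -0.34 for 1 of 3 probe sets of Ifnar2 and by -0.26 for 1 of 3 of Ifi35. Averaged over its probe sets, the difference of a gene ran from -0.06 to 0.23, and the median over the 35 genes was 0.04 beside 0.01 over all genes. Above 0 lay 26 of the 35 genes, as did 55.2% of all genes. By their labels 3 of the 4 knockout arrays and 1 of the 4 wild type arrays were male. With labelled sex as a covariate 0.471% of all probe sets were called higher and 1.99% lower, but no member, and 4 members were higher and 1 lower at an unadjusted p under 0.05, beside 9.9% and 11.5% of all.

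No receptor or factor stood apart at this age over all its probe sets. The genotypes parted on 1 of the 61 probe sets with the knockout higher, beside 2.8% of all probe sets, and this was another probe set of Ifnar2, a chain of the receptor. Its knockout arrays lay at 0.11, 0.11, 0.15 and 0.03 and its wild type arrays at -0.01, 0.00, -0.01 and 0.02, a difference of 0.10 (SE 0.06, adjusted p = 0.62). The Ifnar2 probe set with the lower knockout mean had knockout arrays at 0.01, -0.32, -0.60 and -0.44 and wild type arrays at -0.08, 0.12, 0.21 and -0.25, so that the groups overlapped.

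Averaged over their probe sets, 2 of the 35 genes were free of overlap at P7 with the knockout higher, both with small values, and so were 3.46% of all genes. Eif2ak2 encodes PKR, a kinase that stops translation on sensing double-stranded RNA, and the differences of its 3 probe sets were 0.06, 0.07 and 0.09. Parp14, an ADP-ribosyltransferase induced by interferon, had 0.08 and 0.14. In each of these 5 probe sets taken alone the arrays overlapped.

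Single arrays departed from their group at P7. For Rtp4, a chaperone-like protein that is a strong interferon target, knockout array 5 lay at 0.70 while the other knockout arrays lay between -0.09 and -0.02. On this array the median over the member genes was 0.16, and 31 of the 35 genes were above 0. The other knockout medians were 0.05, -0.01 and 0.03, and those of the wild type arrays ran from -0.04 to 0.03. Choroid plexus markers, taken as a list, were lower on the P7 knockout arrays (list means from -2.36 to -0.47 against -0.27 to 0.19). So were markers of meningeal fibroblasts (-0.28 to -0.09 against -0.04 to 0.07) and of dividing cells (-0.26 to -0.06 against -0.03 to 0.04). Oligodendrocyte markers were higher (0.33 to 0.83 against -0.22 to 0.17), with 15 of 28 probe sets free of overlap, beside 2.8% of all. No gene of these lists was called, and the part of such cells in the member values was not tested.

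In P30 cerebella most interferon response genes lay higher in the knockout, but no single probe set passed the test. By limma none of the 61 was called, beside 0.144% of all probe sets. The closest were Rtp4, Usp18 and Oasl2. An unadjusted p under 0.05 with a higher knockout mean was reached by 20 of the 61 (32.8%), beside 4.16% of all, and by none with a lower mean, beside 3.55% of all. The genotypes did not overlap in 17 of the 61 probe sets (27.9%) with the knockout higher, beside 6.24% of all, and in none with the knockout lower, beside 6.25%. Averaged over its probe sets, the difference was above 0 in 29 of the 35 genes, beside 49.3% of all genes. It exceeded a fold of 1.3 in 11, a share that was not counted over all genes. The median was 0.25, and -0.00 over all genes. The methods' t-test called 7 of the 61 higher without correction, beside 0.646% of all, and 0 with it. Without wild type array 3 limma called 3 of the 61 higher, beside 0.155%. Without knockout array 1, which stood against its labelled sex, none was called, beside 0.06% of all called higher. In that fit 16 had an unadjusted p under 0.05 with a higher knockout mean, beside 2.91% of all.

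The largest values belonged to feedback and effector genes. Usp18, a protease that removes ISG15 from proteins and blocks the receptor from within, lay at 0.91, 0.68 and 0.77 on the 3 knockout arrays and at -0.11, -0.17 and 0.28 on the wild type arrays. Every knockout array was above every wild type array. The difference was 0.79 (SE 0.12, adjusted p = 0.0684 by limma).

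Rtp4 lay at 0.95, 0.71 and 0.71 in the knockout and at 0.02, -0.23 and 0.21 in the wild type by its first probe set, again without overlap. The difference was 0.79 (SE 0.12, adjusted p = 0.0605). Its second probe set did not show this and differed by 0.06, with overlap.

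Oasl2, a relative of the enzymes that activate RNase L, lay at 0.93, 0.57 and 0.54 against -0.09, -0.04 and 0.12, with a difference of 0.68 (SE 0.11, adjusted p = 0.0856). Ifit1 lay at 0.95, 0.60 and 0.41 against -0.09, 0.03 and 0.07, with a difference of 0.65 (SE 0.13, adjusted p = 0.174). Ifih1, which encodes the RNA sensor MDA5, lay at 0.93, 0.38 and 0.39 against -0.09, -0.04 and 0.14, with a difference of 0.57 (SE 0.14, adjusted p = 0.365). In these 3 genes knockout array 1 was the highest and no wild type array reached a knockout array.

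Among the transcription factors only Irf9, the DNA-binding partner of STAT2, was free of overlap. It lay at 0.58, 0.40 and 0.33 in the knockout and at -0.12, -0.01 and 0.13 in the wild type, with a difference of 0.44 (SE 0.09, adjusted p = 0.25). Irf7, which amplifies interferon production, differed by 0.07, Irf1 by 0.10 and Stat2 by 0.09 on each of its probe sets. In these 3 factors the arrays of the genotypes overlapped. Of the receptor chains, the probe sets of Ifnar1 differed by 0.11 and -0.24 and those of Ifnar2 by 0.03, 0.20 and 0.21, each with overlap. Averaged over its probe sets Ifnar2 was higher without overlap, with knockout arrays from 0.06 to 0.25 and wild type arrays from -0.03 to 0.02.

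Other members had at least 1 probe set without overlap at P30, with smaller or less even values. The ubiquitin ligase Trim25, which acts in RNA sensing, differed by 0.50 on 1 probe set (adjusted p = 0.100), by 0.21 on a second and by 0.06 on the third. Ifi35 differed by 0.68, 0.16 and 0.11 on its 3 probe sets, Ifi27 by 0.52 and 0.32, Xaf1 by 0.54 and 0.19, Parp9 by 0.34, and Bst2 by 0.25. Some large differences came with overlap. Rsad2 (viperin) had 0.62 on 1 of its 3 probe sets and 0.19 and 0.04 on the others, Ifitm3, which keeps viruses from leaving endosomes, had 0.61, and Ifit3 had 0.45 with wild type array 3 at 0.80.

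The remaining genes of the interferon pathway, taken from lists of names, were called in only a few cases at P30. Among 54 other interferon-stimulated genes 1 was called, Gbp6, a GTPase that attacks pathogen vacuoles, which rose by 1.00 on 1 probe set (SE 0.12, adjusted p = 0.0205 by limma). Their median difference was 0.08, with 42 of 54 above 0. Class I antigen presentation lay above 0 in 11 of 11 genes, with a median of 0.19. Of these 2 were called, B2m, the invariant chain of class I molecules, which rose by 1.12 and 1.21 on its probe sets (adjusted p = 0.000198 and 0.000365), and H2-K1, a heavy chain, which rose by 0.70 on 1 probe set (adjusted p = 0.0414). Probes of class I genes may also read their close relatives.

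None of the 9 interferon ligand genes measured was called, and 2 of the 9 were above 0, with a median of -0.14. The ligand list means did not overlap, from -0.16 to -0.07 in the knockout against -0.03 to 0.05 in the wild type. Of the 9 ligand probe sets 2 were lower without overlap, beside 6.25% of all probe sets. None of the 19 genes of JAK-STAT signalling and its brakes was called, but 16 of the 19 lay above 0, with a median of 0.04. The list means did not overlap, from 0.09 to 0.10 in the knockout against -0.02 to 0.03 in the wild type. Of the 45 probe sets of this list 6 were higher without overlap, beside 6.24% of all. The largest values without overlap there were those of Irf8, a factor of myeloid cells, at 0.74 and 0.71 (adjusted p = 0.0605 and 0.144). None of the 18 genes of nucleic acid sensing was called.

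Markers of microglia and of astrocytes were also higher in the knockout at P30. Of 19 genes that mark microglia and macrophages, 19 lay above 0 at P30 with a median difference of 0.69, and 11 were called higher. Tyrobp, an adaptor of microglial receptors, rose by 2.20 (adjusted p = 2.06e-05), and Csf1r, the receptor that keeps microglia alive, by 0.90 on 1 probe set (adjusted p = 0.0365). The mean of the list ran from 0.81 to 1.01 on the knockout arrays and from -0.07 to 0.07 on the wild type arrays. Markers of astrocytes ran from 0.39 to 0.44 in the knockout and from -0.01 to 0.01 in the wild type, and Gfap was called. T, B and NK cell markers overlapped, from -0.04 to 0.04 against -0.09 to 0.07. The part of these cells in the interferon values was not tested. At P7 the microglial list overlapped between the genotypes, from -0.06 to 0.21 against -0.05 to 0.04, and none of it was called.

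**Figure D1:**
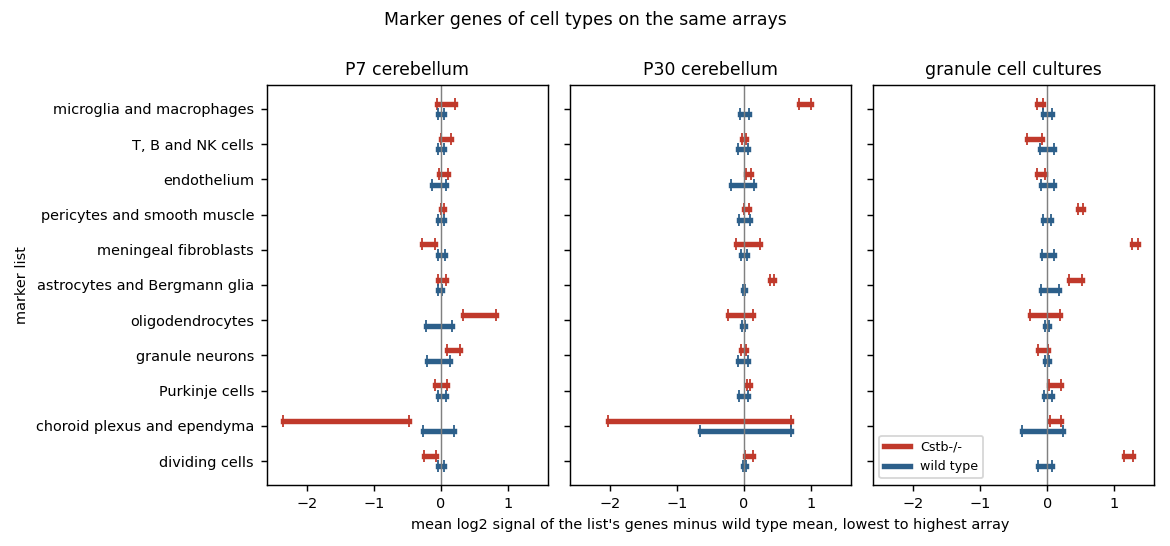
Mean log2 signal of cell type marker lists relative to the wild type mean (horizontal axis), drawn from the lowest to the highest array of each genotype in each experiment. At P30 microglial markers (0.81 to 1.01 in Cstb-/-) and astrocyte markers stood apart. In the granule cell cultures meningeal fibroblast, dividing cell, pericyte and smooth muscle, and astrocyte markers did, and microglial markers narrowly. At P7 choroid plexus, meningeal fibroblast, dividing cell and oligodendrocyte markers did.

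In the granule cell cultures the order was the opposite, and interferon response genes were lower in the knockout. By limma 4 of the 61 member probe sets were called lower (6.56%), beside 0.469% of all, and 1 was called higher (1.64%), beside 2.07% of all. The genes that fell were Usp18, Rtp4, Lgals3bp and Dtx3l, and the one that rose was Ifit2. The genotypes did not overlap in 21 probe sets with the knockout lower (34.4%), beside 9.33% of all, and in 2 with the knockout higher (3.28%), beside 13.4%. Averaged over its probe sets, 31 of the 35 genes lay below 0, beside 50.7% of all genes. Of these 31, 15 lay beyond a fold of 1.3, a share that was not counted over all genes. The median difference was -0.29, and -0.00 over all genes. The methods' t-test with correction called no member at its threshold, and without correction 6 lower and 1 higher, beside 1.41% and 4.71% of all. In the cultures 23118 probe sets had tied arrays, and in 97.3% of these at least 2 arrays lay at exactly 0. Without such probe sets the median over the member probe sets went from -0.18 to -0.43, and 6 of the 36 left were called lower and 1 higher, beside 1.93% and 7.57% of all left.

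Usp18 showed the largest difference of all members. Its signal was -3.12, -2.95 and -3.01 on the knockout arrays and 0.80, 0.30, -0.73 and -0.37 on wild type arrays 4, 5, 7 and 8. The knockout arrays lay close together, below a wild type group that was itself spread out. The difference was -3.03 (SE 0.32, adjusted p = 0.00157), an 8.15-fold lower signal.

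Rtp4 lay at -1.81, -1.48 and -1.70 against 0.42, 0.21, -0.43 and -0.20 by its first probe set. It fell 3.17-fold (difference -1.66, SE 0.20, adjusted p = 0.0027). The second probe set of Rtp4 differed by -0.17, and its highest knockout array tied with the lowest wild type array. Such a tie is counted as overlap here. Lgals3bp, a secreted glycoprotein that binds galectins, lay at -1.24, -1.06 and -1.36 against 0.22, 0.11, -0.21 and -0.12 and fell 2.33-fold (difference -1.22, SE 0.12, adjusted p = 0.00129). Both genes thus followed the array order of Usp18 in the wild type, with arrays 4 and 5 above arrays 7 and 8.

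Dtx3l, a ubiquitin ligase that works with PARP9, lay at -1.06, -0.77 and -0.98 against 0.26, 0.12, -0.39 and 0.00 on the probe set that was called (difference -0.94, SE 0.15, adjusted p = 0.00971). On its other probe set the difference was -0.40 and the arrays overlapped. Its partner Parp9 differed by -0.56 (SE 0.20, adjusted p = 0.104), without overlap.

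Ifit2, a member of the same family as Ifit1, went the other way. It lay at 0.74, 0.59 and 0.51 in the knockout and at 0.02, 0.01, 0.01 and -0.03 in the wild type, a rise of 1.53-fold (difference 0.61, SE 0.08, adjusted p = 0.00359). Ifit1 lay at -0.91, -0.87 and -0.54 against 0.46, -0.21, -0.28 and 0.03 (difference -0.77, SE 0.18, adjusted p = 0.0347), short of the threshold set for the cultures. Ifit3 differed by -0.52 (adjusted p = 0.0679), and its highest knockout array tied with the lowest wild type array. Of the 3 Ifit genes measured, 1 was thus higher and none was called lower.

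**Figure D2:**
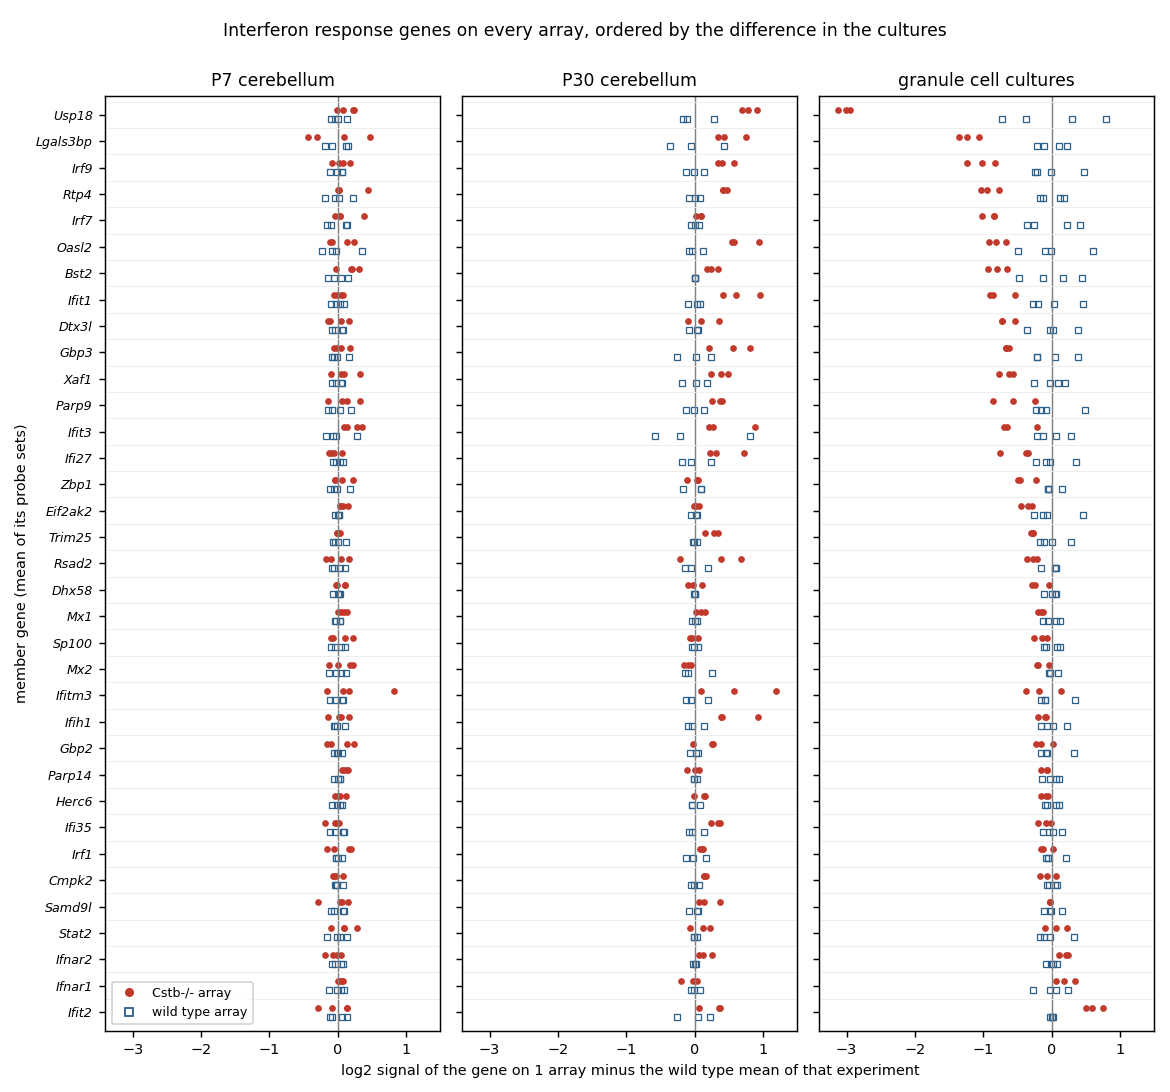
Log2 signal of each of the 35 interferon response genes on every array relative to the wild type mean of its experiment (horizontal axis), with Cstb-/- arrays as filled circles and wild type arrays as open squares. In the cultures Usp18 lies near -3 on all knockout arrays, and Ifit2 at the bottom is higher in the knockout, while the P7 values crowd around 0.

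Of the transcription factors, Irf9 and Irf7 lay apart in the cultures, although neither passed the threshold. Irf9 lay at -0.82, -1.24 and -1.03 in the knockout and at 0.48, -0.01, -0.22 and -0.25 in the wild type (difference -1.03, SE 0.18, adjusted p = 0.013). Irf7 lay at -1.02, -0.84 and -0.85 against 0.41, 0.22, -0.27 and -0.37 (difference -0.90, SE 0.19, adjusted p = 0.0225). In both genes each knockout array was below each wild type array.

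Stat2 and Irf1 did not share this. The probe sets of Stat2 differed by -0.05 and 0.16 and Irf1 by -0.10, all with overlap. Of the receptor chains, Ifnar1 differed by 0.28 and 0.10 with overlap. Ifnar2 lay at 0.43, 0.25 and 0.40 against 0.07, -0.01, -0.13 and 0.07 on 1 probe set (difference 0.36, SE 0.08, adjusted p = 0.0334), the only other member probe set besides Ifit2 on which the knockout was higher without overlap. Its other probe sets had 0.26 and -0.06.

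Among the effectors, Oasl2 lay at -0.81, -0.67 and -0.92 in the knockout and at 0.61, -0.02, -0.49 and -0.10 in the wild type (difference -0.80, SE 0.22, adjusted p = 0.0573). The first probe set of Eif2ak2 differed by -0.54 (SE 0.16, adjusted p = 0.0728) and was free of overlap. Another differed by -0.34, with its highest knockout array tied with the lowest wild type array, and the last by -0.20 with overlap. Bst2 (-0.80), Gbp3 (-0.66), Trim25 (-0.46 and -0.39 on 2 of 3 probe sets) and Xaf1 (-0.89 and -0.42) were lower without overlap as well. Mx1 and Mx2, classical antiviral GTPases, differed by -0.16 and -0.15, and Ifih1 differed by -0.13. In Mx1 and Mx2 the highest knockout array tied with the lowest wild type array.

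The wild type cultures were themselves uneven. Wild type array 4 was the highest of the 4 wild type arrays in 26 of the 35 genes and in 15 of the 17 genes whose genotypes did not overlap with the knockout lower. Over all genes 8.76% were lower without overlap. The share of all genes that were highest on wild type array 4 was not counted. The median over all genes on that array was -0.01. The median over the member genes was 0.22 on array 4, 0.01 on array 5, -0.12 on array 7 and -0.08 on array 8, and -0.23, -0.22 and -0.28 on the knockout arrays. Without wild type array 4, 3 member probe sets were called lower, without wild type array 5 or 8, 2, without knockout array 1, 1, and without knockout array 3, none, beside 0.0688% to 0.206% of all in these fits. The higher call of Ifit2 was lost without any of knockout arrays 1 and 3 and wild type arrays 5, 7 and 8. Without wild type arrays 7 and 8, 1 was called lower and none higher, beside 0.00444% and 0.0488% of all. Without knockout arrays 1 and 2 a lone knockout array was left, so no calls are counted. The median over the member probe sets was then -0.25, beside -0.02 over all. The Usp18 difference ran from -3.58 to -2.76 over all alternatives tried.

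**Figure D3:**
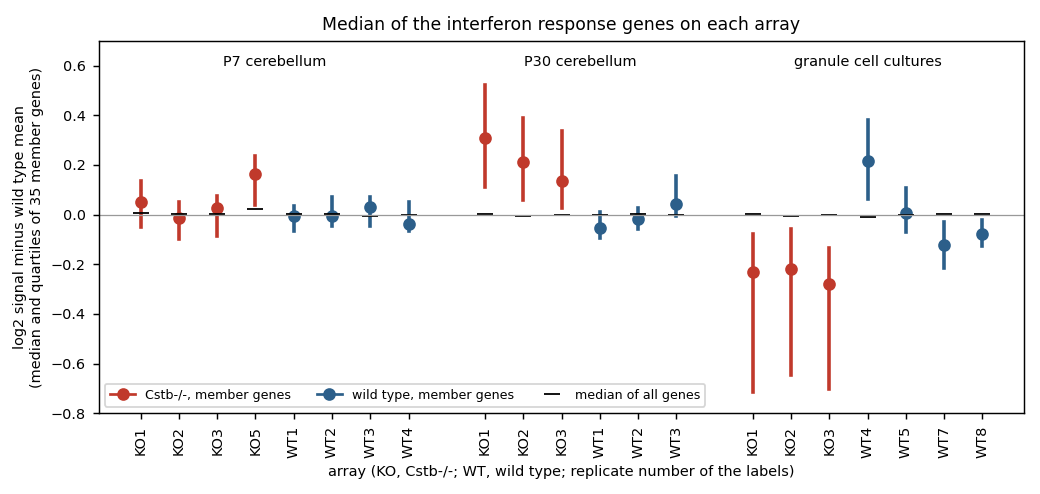
Median (point) and quartiles (bar) over the 35 interferon response genes on each array, as log2 signal relative to the wild type mean of the experiment, with the median of all genes as a black dash. The 3 knockout medians lie between 0.13 and 0.31 at P30 and between -0.28 and -0.22 in the cultures, where wild type array 4 stands above the others at 0.22.

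Wider pathway lists in the cultures held calls in both directions. Of 54 other interferon-stimulated genes 38 lay below 0 with a median of -0.17. Among them 2 fell, Trim30a by 0.95 on 1 probe set (adjusted p = 0.00359) and Oas1b by 0.89 (adjusted p = 0.00852), and Plscr1, a lipid scramblase, rose by 1.04 on 1 probe set (adjusted p = 0.00883). Socs3, a brake on JAK-STAT signalling, was the only call among 19 genes of that list and rose by 1.09 on 1 of its probe sets (adjusted p = 0.00363). Of 18 nucleic acid sensing genes, Adar, which edits double-stranded RNA, fell by 0.49 (adjusted p = 0.00638), and Rnaseh2a, the catalytic subunit of RNase H2, rose by 0.83 (adjusted p = 0.000756). None of the 11 class I antigen presentation genes and none of the 9 ligands was called, and all 9 ligands had a difference below 0, with a median of -0.10. The ligand list means ran from -0.247 to -0.101 in the knockout and from -0.098 to 0.0946 in the wild type, without overlap but close. No single ligand probe set was free of overlap.

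Markers of some other cell types were called in the cultures, and these calls were mostly higher in the knockout. Of 12 meningeal fibroblast markers 12 lay above 0 and 10 were called higher, with list means from 1.27 to 1.36 on the knockout arrays and from -0.08 to 0.10 on the wild type arrays. Of 11 genes of dividing cells 10 were called higher, with list means from 1.15 to 1.28 against -0.14 to 0.07. Microglial markers lay slightly lower, with 13 of 19 genes below 0 and none called. Their list means ran from -0.152 to -0.0619 on the knockout arrays and from -0.0598 to 0.0655 on the wild type arrays, so that the groups did not overlap but lay close. The knockout was lower without overlap on 3 of the 30 probe sets, of Laptm5, C1qa and Ctss, beside 9.33% of all. It was higher without overlap on another probe set of Laptm5, beside 13.4% of all. T, B and NK cell markers were below 0 in 10 of 10 genes with a median of -0.23. Of their 16 probe sets 3 were lower without overlap, beside 9.33% of all. None was called and the list means overlapped (-0.30 to -0.08 against -0.11 to 0.10). Endothelial markers were below 0 in 7 of 10 genes with a median of -0.12, none was called, and the list means overlapped. Markers of pericytes and smooth muscle ran from 0.46 to 0.53 against -0.07 to 0.06, and those of astrocytes from 0.32 to 0.52 against -0.09 to 0.17. Granule neuron markers overlapped, from -0.14 to 0.01 against -0.04 to 0.03. The part of these cells in the lower interferon values was not tested.

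Whether the knockout acted differently in the cultures and in the P30 cerebella was tested as a difference of differences in 1 limma fit, at an adjusted p under 0.05. The knockout difference was lower in the cultures for 19 of the 61 member probe sets (31.1%), in 16 genes, beside 1.18% of all probe sets. It was higher for none, beside 3.91% of all, and for 1 at an unadjusted p under 0.05, beside 12.8%. These 2 experiments share no arrays, but tissue, age and culture differ between them and cannot be told apart.

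The widest gap was that of Usp18, with a knockout difference of -3.03 in the cultures and 0.79 at P30, -3.82 apart (SE 0.32, adjusted p = 1.06e-07). Rtp4 followed with -2.46 (adjusted p = 1.83e-05) on its first probe set and Lgals3bp with -1.72 (adjusted p = 0.000449). Irf9 came to -1.47 (adjusted p = 6.04e-05), Oasl2 to -1.48 (adjusted p = 0.00135) and Ifit1 to -1.43 (adjusted p = 0.000159). In these 6 genes the knockout mean was above the wild type mean at P30 and below it in the cultures.

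Not every gap came from opposite signs. Irf7 (-0.97, adjusted p = 0.00789) and Dtx3l (-0.91, adjusted p = 0.00978, on 1 probe set) were near 0 at P30 and low in the cultures. Ifih1 (-0.70, adjusted p = 0.0172) was high at P30 and near 0 in the cultures. The receptor genes Ifnar1 and Ifnar2, Stat2, Irf1 and Ifit2 were not among the 16.

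**Figure D4:**
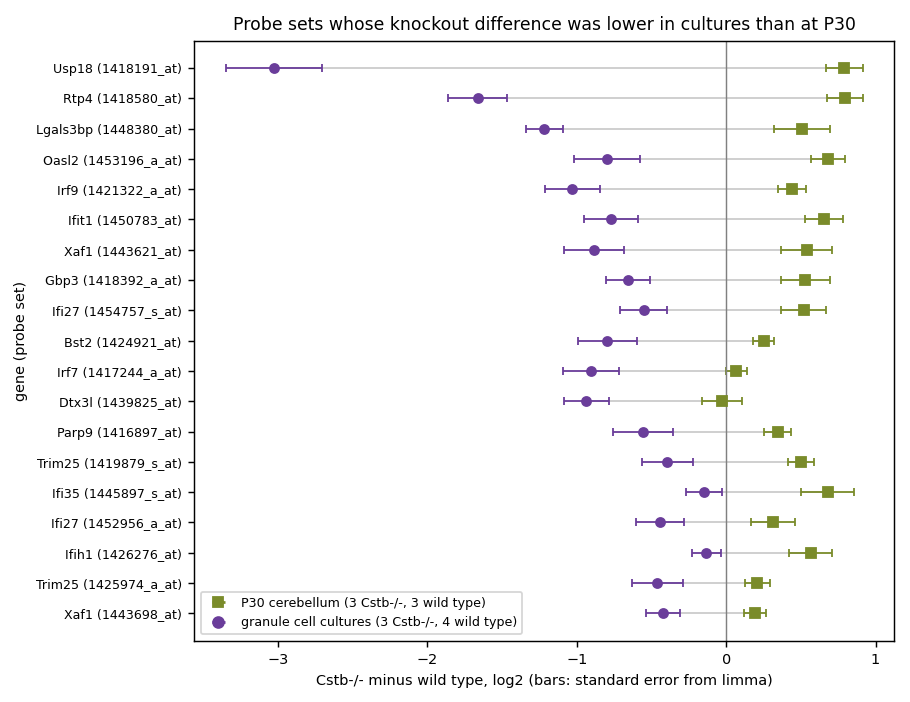
Knockout minus wild type difference in log2 signal (horizontal axis, bars are the standard error from limma) at P30 (squares) and in granule cell cultures (circles) for the 19 member probe sets whose difference was lower in the cultures by the test of the difference. Usp18 spans from 0.79 to -3.03, and Ifih1 and Ifi35 are set apart mainly by their P30 values.

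Over all 35 genes, 26 had a difference above 0 at P30 and below 0 in the cultures, 5 were below 0 in both, 3 above 0 in both and 1 below 0 at P30 alone. The genotypes were free of overlap in both experiments, in opposite directions, in 9 genes: Bst2, Ifit1, Irf9, Oasl2, Parp9, Rtp4, Trim25, Usp18 and Xaf1. The same held for 63 of all 18193 genes (0.346%). Without wild type arrays 7 and 8 the test of the difference called 21 member probe sets lower in the cultures, beside 0.633% of all. Without knockout arrays 1 and 2, which left a lone knockout culture, the median over the member probe sets in this contrast was -0.42, beside -0.00 over all.

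Against the P7 cerebella, the knockout difference in the cultures was lower for 20 of the 61 (32.8%), in 18 genes, beside 7.32% of all probe sets. It was higher for 2 (3.28%), beside 13% of all, namely Ifit2 by 0.64 (adjusted p = 0.00713) and 1 probe set of Ifnar2 by 0.60 (adjusted p = 0.026). Between P30 and P7 no member differed by this test, beside 0.124% of all probe sets called either way. The largest member value there, 0.94 for the Ifi35 probe set that was low at P7, had an adjusted p of 0.133. Usp18 had 0.66 (SE 0.31, adjusted p = 0.636) and Rtp4 0.65 (SE 0.29, adjusted p = 0.608). At an unadjusted p under 0.05, 15 member probe sets were higher at P30 than at P7 in this contrast (beside 4.13% of all). This count fell to 8 without P30 knockout array 1 (beside 3.3% of all) or P30 wild type array 1 (beside 2.78%). It fell to 9 without P7 knockout array 2 (4.43%) or P30 wild type array 2 (3.33%), and to 10 without P7 wild type array 4 (4.32%). It rose to 17 without P7 knockout array 5 (3.26%) and to 19 without P30 wild type array 3 (5.38%). With labelled sex as a covariate it was 6, beside 6.73% of all. At P30 only knockout array 1 was labelled female, so there this covariate takes that array out of the comparison. Without P30 knockout array 2 the test called 1 member higher, beside 0.142% of all, and without P30 wild type array 3 also 1, beside 0.16%. Without P7 knockout array 5 the lower calls of the cultures against P7 came to 13, beside 4.94% of all.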

How the data were processed

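RNA of cerebella and granule cell cultures was measured on Affymetrix mouse expression arrays. By their methods, the authors adjusted the background, normalized by quantiles and summarized the signals with RMA, and deposited log2 values from which the median of each probe set had been subtracted. In the files this median is 0 within each experiment. Equal values on 2 or more arrays occurred in 51.3% of probe sets in the cultures, 2.9% at P7 and 2.1% at P30. RMA versions are not given in the sources used here.

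Of 45101 probe sets, 64 controls were left out. Genotypes were compared within each experiment by limma (lmFit and eBayes, version 3.58.1, R 4.3.3), 2-sided, with Benjamini-Hochberg adjustment over the 45037 others. The thresholds follow the methods. The differences between experiments came from 1 fit of 6 group means. Tables were handled in Python 3.11.15 with pandas 2.3.3. The fit was tested on simulated data.

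Gene symbols came from the platform annotation (34945 probe sets with 1 symbol, 932 with several, 9160 with none). Of 267 names in the pathway and marker lists 231 matched. The members and lists were chosen with earlier results of these data known. Values per array are given for member genes with a call, for the 6 genes per experiment with the largest difference free of overlap (averaged over probe sets), and for receptors and factors. Replicate numbers did not pair the arrays (correlations of deviations from -0.18 to 0.17). The alternatives were other tests, thresholds, weights, centring, covariates and left-out arrays. The number of arrays limits the precision.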

Additional observations from a re-analysis of the deposited data

Results flagged for a closer look

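In 4 of 75 groups of 4 arrays, 1 array of a named member lay far from the other 3. Chance marks about 1 in 20 groups in this way. The first Rtp4 probe set lay at 0.70 on P7 knockout array 5 and between -0.09 and -0.02 on the other knockout arrays. The third Eif2ak2 probe set lay at -0.056 on P7 knockout array 3 and between 0.13 and 0.16 on the others. In the cultures Irf1 lay at 0.20 on wild type array 5 (others -0.08 to -0.06) and Ifit2 at -0.034 on wild type array 8 (others 0.01 to 0.02).

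The knockout difference was not the same in cultures and P30 cerebella for 9 named members by the limma test of the difference. The culture difference minus the P30 difference was -3.82 for Usp18, -2.46 for Rtp4, -1.72 for Lgals3bp, -1.48 for Oasl2, -1.47 for Irf9, -1.43 for Ifit1, -0.97 for Irf7, -0.91 for Dtx3l and -0.70 for Ifih1. Against P7, 20 member probe sets were lower in the cultures and 2 were higher.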

How the results depend on the processing

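Of 291 alternatives for 16 values of named members, 234 kept their side of the threshold, 33 lost the call and 24 gained one. The direction never reversed. All 16 values were free of overlap between the genotypes, so leaving out arrays could not have reversed it, and nothing is concluded from this. At P30 array weights and the methods' t-test without correction gave 7 higher member probe sets each, beside 0.453% and 0.646% of all. The mean of the probe sets of a gene gave 1 gene, beside 0.269% of all genes. Leaving out 1 array there gave 0 to 3, beside 0.06% to 0.155% of all. In the cultures the lower count was 11 at an adjusted p of 0.05 (beside 2.21% of all probe sets), 16 in 1 fit over all groups (beside 3.5%) and 0 by the methods' t-test with correction, which also gave 0 higher. Leaving out 1 array gave 0 to 4 lower and 0 to 1 higher, beside 0.0688% to 1.11% and 0.528% to 4.85% of all. Without wild type arrays 7 and 8 the counts were 1 lower and 0 higher, beside 0.00444% and 0.0488% of all. Without knockout arrays 1 and 2 the median over the member probe sets was -0.25, beside -0.02 over all. That fit held a lone knockout array, its spread came from the wild type cultures alone, and no calls are counted from it. Both choices were made after seeing the data. Between P30 and P7 array weights gave 4 higher, beside 0.777% of all, and leaving out 1 array 0 to 1, beside 0.0822% to 0.16%. For the cultures against P7, leaving out 1 array gave 13 to 21 lower and 1 to 3 higher, beside 4.17% to 11% and 9.19% to 16.9% of all. Without knockout arrays 1 and 2 the median over the member probe sets in this contrast was -0.28, beside -0.03 over all. For the cultures against P30, leaving out 1 array gave 15 to 22 lower, beside 0.715% to 3.38% of all. With the replicate number as a block, the replicate block gave 0 member calls at P7 and 0 at P30, so it changed no call there. The cultures share no replicate numbers between genotypes. The causes of these changes were not tested. Signal over background cannot be read from centred values.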
